A study of Mus musculus with 6 samples.

Results

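Expression of 9 genes of calcium signalling was examined in RAW264.7 cells, an immortalised mouse macrophage line that forms osteoclast-like cells when given the cytokine RANKL. The genes encode the NFAT transcription factors (Nfatc1, Nfatc2, Nfatc3, Nfatc4 and Nfat5), subunits of the phosphatase calcineurin (Ppp3ca, Ppp3cb and Ppp3r1) and the calcineurin inhibitor Rcan1. They were chosen as a pathway by name, with earlier results of these data known. All 9 were found among 55536 Ensembl gene IDs by their mouse GENCODE M21 symbols, and 8 of them passed the filter on low values. Total RNA was sequenced in bulk from 3 libraries of cells given 50 ng/mL RANKL with 4 µM etelcalcetide, a peptide agonist of the calcium-sensing receptor, and from 3 libraries of cells given 50 ng/mL RANKL alone. RANKL was therefore present in both groups, and no library without RANKL was analysed here. Treatment lasted 5 days by the series' design, but the samples are labelled 5 days in replicate 1, 6 days in replicate 2 and 7 days in replicate 3 of both groups. Both groups come from 1 cell line, and the labels do not tell whether replicates were cultured apart, so each p-value reflects the variation among these 6 libraries, which may be technical.

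Calcineurin is a phosphatase that calcium switches on; it consists of a catalytic A subunit and a regulatory B subunit. It removes phosphate groups from NFATc1, NFATc2, NFATc3 and NFATc4, which then enter the nucleus, whereas NFAT5 lacks the calcineurin docking region and responds to osmotic stress. In osteoclast precursors RANKL raises NFATc1, which acts on its own gene and on the genes of bone resorption, and NFATc2 is known in mouse cells to bind the Nfatc1 promoter early in that process. RCAN1 binds calcineurin and inhibits it, and in human cells a shorter form of it comes from an internal promoter that NFAT activates.

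Recovered depth was 13742913 to 16264432 reads per library with etelcalcetide and 14530043 to 15877596 with RANKL alone. Values are FPKM, a read count divided by the gene's exon length and the library's total. That length covers the exons of all annotated transcripts, whether or not they are expressed, so comparisons of level between genes depend on it. Tests used limma on log2(FPKM + 0.1) after scaling between libraries, with Benjamini-Hochberg adjustment over 11120 tested genes, and a gene is called changed at an adjusted p under 0.05. Of all tested genes 53.0% were changed: 26.0% rose and 27.0% fell with etelcalcetide. The calls were 2896 higher and 2998 lower, and 3558 higher and 2272 lower where library totals replaced the scaling, which put the median log2 fold change of all genes at 0.07 in place of -0.01. Markers of other cells moved as well. Summed FPKM of 8 osteoclast markers was 183 to 198 with etelcalcetide and 345 to 478 with RANKL alone, and 0 of 7 tested rose and 4 fell. Most of the osteoclast sum with etelcalcetide came from Mmp9, which did not pass. Mmp9 was at 163 ± 8.04 FPKM with etelcalcetide and 158 ± 21.7 FPKM with RANKL alone, so the sum understates the fall of the 4 genes. Summed FPKM of 6 dendritic cell markers was 22.7 to 30.1 with etelcalcetide and 7.21 to 10.0 with RANKL alone. Of these, 2 of 3 tested rose: Zbtb46 and Ccr7, a chemokine receptor of migrating dendritic cells. Most of the difference in the sum came from Ccr7, at 16.1 FPKM with etelcalcetide and 0.136 FPKM with RANKL alone. Itgax did not pass (log2 fold change -0.11). Flt3, Xcr1 and Cd209a had at most 5 reads in any library and were not tested. Of 8 macrophage markers, which summed to 2812 to 2973 FPKM with etelcalcetide and 2515 to 2677 with RANKL alone, 7 passed the filter; Adgre1, Itgam and Fcgr1 rose and 0 fell, and 68.7% of the exon length of Itgam is shared with another gene on its strand. Most of the macrophage sum came from Lyz2, which did not pass, at 1830 FPKM with etelcalcetide and 1748 FPKM with RANKL alone. Lymphocyte markers summed to at most 0.0561 FPKM with etelcalcetide and 0.211 with RANKL alone, with 4 of 6 at 0 reads in all libraries. Fibroblast and osteoblast markers summed to at most 0.284 and 0.496 FPKM in these groups, with 2 of 6 at 0. The part of these cell markers in the results on the 9 genes was not tested, and in bulk RNA fewer cells of a type cannot be told apart from less RNA per cell.

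The promoter windows of Nfatc2, the single gene of the 9 that rose, and of Rcan1, whose alternative starts are pooled in a value per gene, show starts over which each FPKM sums. Windows run from 250 bases before to 50 bases after a gene start in RefSeq on GRCm38.p6, and 10 windows of 7 of the genes were matched; no window was used for Nfatc1 or Ppp3ca. Capitals mark the NFAT core GGAAA on either strand (TTTCC when read on the other) and the AP-1 motif TGACTCA, searched on both strands; no matches of the motifs overlap in these 4 windows.
Nfatc2 upstream start, chr2:168601608-168601907, minus strand: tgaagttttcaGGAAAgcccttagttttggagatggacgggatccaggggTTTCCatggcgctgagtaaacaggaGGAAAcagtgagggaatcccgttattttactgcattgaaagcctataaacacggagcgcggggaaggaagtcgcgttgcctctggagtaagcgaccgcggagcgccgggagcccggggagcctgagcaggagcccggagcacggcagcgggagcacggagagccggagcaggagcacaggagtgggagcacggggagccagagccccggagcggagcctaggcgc
Nfatc2 downstream start, chr2:168590316-168590615, minus strand: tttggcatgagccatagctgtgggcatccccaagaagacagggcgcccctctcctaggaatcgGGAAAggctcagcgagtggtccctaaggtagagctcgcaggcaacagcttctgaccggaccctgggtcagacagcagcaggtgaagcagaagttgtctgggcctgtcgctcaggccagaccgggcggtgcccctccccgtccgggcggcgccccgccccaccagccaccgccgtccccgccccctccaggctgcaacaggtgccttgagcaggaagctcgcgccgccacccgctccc
Rcan1 upstream start, chr16:92466120-92466419, minus strand: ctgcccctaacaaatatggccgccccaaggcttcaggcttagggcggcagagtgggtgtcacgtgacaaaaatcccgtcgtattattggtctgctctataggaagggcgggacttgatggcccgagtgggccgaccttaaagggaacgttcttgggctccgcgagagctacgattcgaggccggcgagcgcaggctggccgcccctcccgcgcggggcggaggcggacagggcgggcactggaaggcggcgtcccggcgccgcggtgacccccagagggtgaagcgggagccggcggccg
Rcan1 downstream start, chr16:92400029-92400328, minus strand: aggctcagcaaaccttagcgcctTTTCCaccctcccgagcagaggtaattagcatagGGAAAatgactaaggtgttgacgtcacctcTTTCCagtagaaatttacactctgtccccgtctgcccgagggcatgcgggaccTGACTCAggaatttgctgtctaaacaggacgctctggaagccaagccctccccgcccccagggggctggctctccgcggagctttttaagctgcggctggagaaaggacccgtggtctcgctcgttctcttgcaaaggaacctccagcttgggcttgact

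The upstream Nfatc2 window holds 3 NFAT cores and the first bases of 3 of 9 annotated transcripts. Its downstream window, inside the gene, holds 1 core and the first bases of 3 other transcripts. In Rcan1, which has 7 annotated transcripts, both windows lie inside the gene. The upstream one, where 2 transcripts start, holds 0 NFAT cores and 0 AP-1 motifs, and the downstream one, where 1 transcript starts, holds 3 cores and 1 AP-1 motif. Of 32851 mouse promoter windows of this length, 61.3% hold at least 1 NFAT core, 9.42% hold at least 3, and 5.20% hold the AP-1 motif. Among the other matched genes, the Ppp3cb window holds 4 cores, that of Nfatc4 3 and that of Nfat5 2; the Nfatc3 windows hold 1 and 0, and the Ppp3r1 window holds 0. A match describes letters in the window and is not a binding site, and the deposited values per gene cannot be divided between the starts.

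Calcineurin-regulated NFAT paralogues moved in opposite directions with etelcalcetide: Nfatc1 fell by 1.33 and Nfatc3 by 0.18 on the log2 scale, whereas Nfatc2 rose by 0.66. Of the 8 tested genes of the 9, 1 rose and 5 fell, 75.0% in all, beside 53.0% of all tested genes; without the call of Nfatc3, which several alternatives lost, 5 changed. Groups did not overlap for 6 of the 8 on scaled FPKM, beside 61.9% of all tested genes. The median log2 fold change of the 8 was -0.27, beside -0.01 over all tested genes.

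Nfatc1 (ENSMUSG00000033016, chromosome 18, 80606205 to 80713071, minus strand, GRCm38) is the NFAT factor on which osteoclast formation depends. Its level was 21.6, 21.3 and 23.4 FPKM in the etelcalcetide libraries, against 45.4, 56.9 and 56.2 FPKM in the RANKL libraries. Every etelcalcetide library lay below every RANKL library, and RANKL replicate 1 was the lowest of its group. The log2 fold change was -1.33 (SE 0.0880, 95% confidence interval -1.53 to -1.13, limma adjusted p = 5.91e-06), and 4.42% of tested genes had a larger absolute change. The spread between libraries, a CV of 5.20% with etelcalcetide and 12.2% with RANKL alone, was wider than the counting CV of at most 2.14% with etelcalcetide and 1.39% with RANKL alone.

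Nfatc2 (ENSMUSG00000027544, chromosome 2, 168476410 to 168601657, minus strand) encodes the factor also known as NFAT1, which is abundant in resting T cells. Its level was 8.13, 8.82 and 8.18 FPKM with etelcalcetide, against 4.98, 4.85 and 5.08 FPKM with RANKL alone. The groups did not overlap, and the RANKL libraries lay within a narrow range. The log2 fold change was 0.66 (SE 0.0744, limma adjusted p = 0.000122), a 1.58-fold higher level with etelcalcetide. Per library, the level ratio of Nfatc1 to Nfatc2 averaged 2.64 ± 0.224 with etelcalcetide and 10.6 ± 1.36 with RANKL alone (SD, n = 3 each).

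Nfatc3 (ENSMUSG00000031902, chromosome 8, 106058840 to 106130537, plus strand) encodes NFAT4, a factor of thymocytes and muscle among other tissues. Deposited levels were 11.8, 11.1 and 12.4 FPKM with etelcalcetide, against 13.0, 12.5 and 12.4 FPKM with RANKL alone. These overlapped at their edge, and after scaling they did not. The log2 fold change was -0.18 (SE 0.0624, limma adjusted p = 0.0339), a call that was lost with library totals (-0.10, limma adjusted p = 0.216), with the replicate number as a block (limma adjusted p = 0.0614) and without any one of 4 of the 6 libraries: RANKL replicates 1 and 2 and etelcalcetide replicates 1 and 2 (limma adjusted p = 0.0729, 0.0808, 0.0815 and 0.126). Reads in 1.87% of its exon length could also come from Esrp2 on the other strand.

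Nfatc4 (ENSMUSG00000023411, chromosome 14, 55823144 to 55833943, plus strand), the paralogue best known from heart and neurons, was close to undetected. It had 2, 4 and 3 reads in the etelcalcetide libraries and 1, 2 and 3 reads in the RANKL libraries. The read ratio of etelcalcetide over RANKL was 1.51, with a 95% exact interval of 0.479 to 5.15 that covers counting error only. A difference was not detectable at this depth, and the gene was below the filter and not tested.

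**Figure D1:**
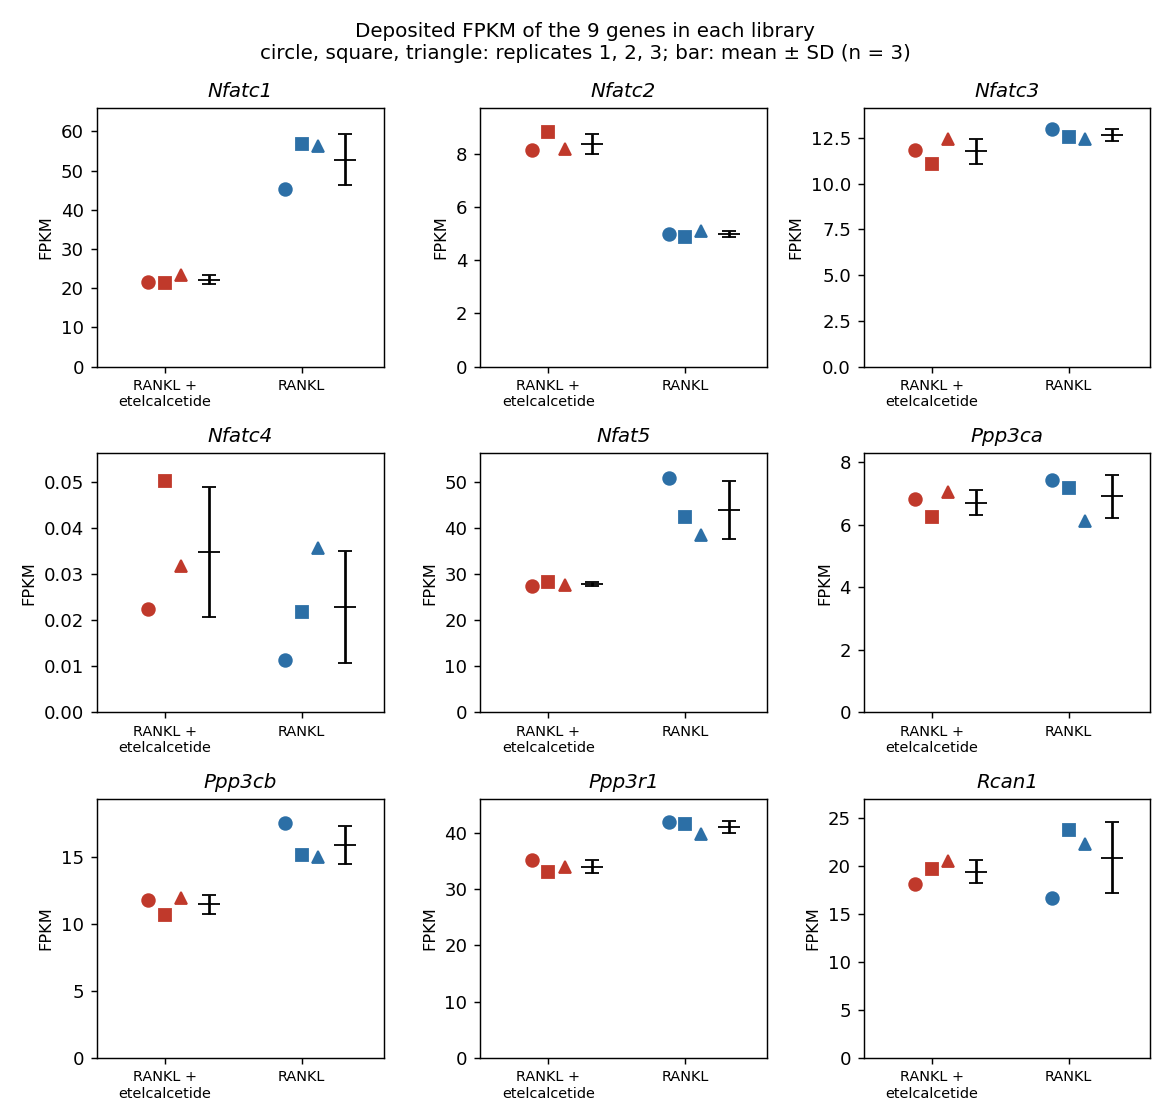
Deposited FPKM (y axis, from 0) of each of the 9 genes in the 3 RANKL + etelcalcetide libraries (red, left) and the 3 RANKL libraries (blue, right), with replicates 1 to 3 as circle, square and triangle and the mean ± SD as a bar. Red and blue points do not overlap for Nfatc1, Nfatc2, Nfat5, Ppp3cb and Ppp3r1; the Nfatc4 axis ends near 0.05 FPKM, about 1 to 4 reads.

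Within the summed FPKM of Nfatc1, Nfatc2, Nfatc3 and Nfatc4, the share of each of the first 3 did not overlap between the groups. Scaling between libraries cannot move such shares, though the exon lengths used can. The sum was 42.3 ± 1.54 FPKM with etelcalcetide and 70.5 ± 6.15 FPKM with RANKL alone (SD, n = 3 each). Nfatc1 made up 51.9%, 51.6% and 53.1% of it in the etelcalcetide libraries, against 71.6%, 76.6% and 76.2% in the RANKL libraries. All etelcalcetide shares of Nfatc1 were the lower ones (two-sided exact permutation p = 0.1, the smallest that 3 against 3 libraries allow, and 0.167 after adjustment over 5 measures). Nfatc2 made up 19.6%, 21.4% and 18.6% with etelcalcetide, against 7.86%, 6.53% and 6.89% with RANKL alone. All etelcalcetide shares of Nfatc2 were the higher ones (two-sided exact permutation p = 0.1, adjusted 0.167). Nfatc3, whose own level differed little, made up 27.8 ± 0.883% with etelcalcetide and 18.1 ± 2.13% with RANKL alone.

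**Figure D2:**
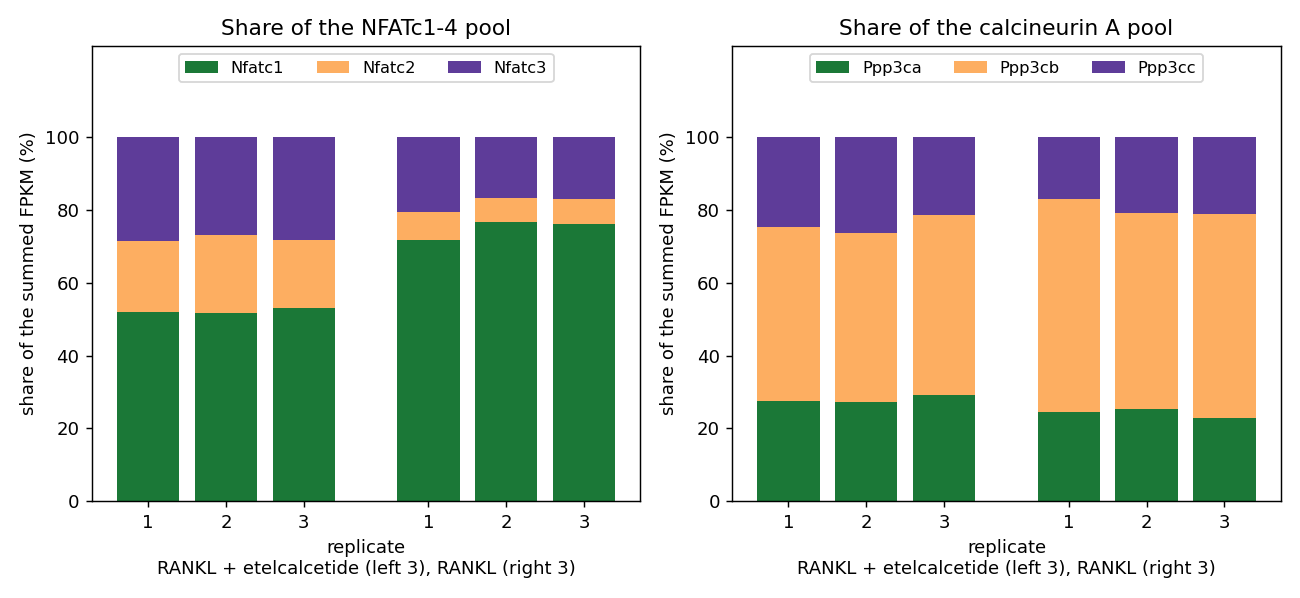
Share (y axis, percent of summed FPKM) of each paralogue per library, for NFATc factors on the left and calcineurin A subunits on the right, with the 3 RANKL + etelcalcetide libraries left of the 3 RANKL libraries in each panel. Nfatc1 (green) takes 51.6% to 53.1% of the NFATc sum with etelcalcetide and 71.6% to 76.6% with RANKL alone; Nfatc4 is counted in the sum and is too small to see.

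Nfat5 (ENSMUSG00000003847, chromosome 8, 107293470 to 107379517, plus strand), the tonicity-responsive factor outside calcineurin control, fell with Nfatc1. Its level was 27.5, 28.2 and 27.7 FPKM with etelcalcetide, against 51.0, 42.4 and 38.5 FPKM with RANKL alone. The groups did not overlap, and the etelcalcetide libraries were nearly alike (CV 1.35%) where the RANKL libraries were spread out (CV 14.5%). The log2 fold change was -0.73 (SE 0.0934, limma adjusted p = 0.000257). Of 6 genes reported elsewhere as NFAT5 targets, 5 were tested, 0 rose and 4 fell, beside 27.0% of all genes falling, with a median log2 fold change of -1.01. Akr1b3, the aldose reductase that makes sorbitol, was at 63.5 ± 6.28 FPKM with etelcalcetide and 266 ± 26.3 FPKM with RANKL alone (log2 fold change -2.15, limma adjusted p = 2.88e-07). Slc5a3, the sodium-coupled inositol carrier, was at 26.9 ± 1.87 FPKM with etelcalcetide and 51.9 ± 10.6 FPKM with RANKL alone (log2 fold change -1.01, limma adjusted p = 0.000191). Hspa4l, a chaperone of osmotic stress, fell by 1.36 on the log2 scale and Slc6a12, the betaine carrier, fell by 0.28. The taurine carrier Slc6a6 did not pass (log2 fold change -0.08), and Aqp1 was not tested.

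Among the calcineurin genes, Ppp3cb of the catalytic subunits and Ppp3r1, the regulatory subunit, fell by 0.55 and 0.35 on the log2 scale, and Ppp3ca did not pass the test. No test compared these fold changes with that of Nfatc1.

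Ppp3ca (ENSMUSG00000028161, chromosome 3, 136670124 to 136937727, plus strand) encodes the alpha form of the catalytic subunit. Its level was 6.81, 6.26 and 7.03 FPKM with etelcalcetide, against 7.42, 7.17 and 6.12 FPKM with RANKL alone. The groups overlapped, and the log2 fold change was -0.12 with a 95% confidence interval of -0.33 to 0.09 (limma adjusted p = 0.312).

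Ppp3cb (ENSMUSG00000021816, chromosome 14, 20499364 to 20546573, minus strand) encodes the beta form. It was measured at 11.8, 10.7 and 11.97 FPKM with etelcalcetide, against 17.6, 15.2 and 15.0 FPKM with RANKL alone. All etelcalcetide libraries were lower (log2 fold change -0.55, SE 0.0779, limma adjusted p = 0.000464).

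Ppp3r1 (ENSMUSG00000033953, chromosome 11, 17159263 to 17200375, plus strand) encodes calcineurin B, the calcium-binding subunit that the catalytic subunits need. Measured levels were 35.1, 33.0 and 33.9 FPKM with etelcalcetide, against 41.9, 41.6 and 39.8 FPKM with RANKL alone. The groups did not overlap (log2 fold change -0.35, SE 0.0504, limma adjusted p = 0.000490). In 14.3% of its exon length it overlaps Wdr92 on the same strand, and reads there may belong to either gene.

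The gamma form of the catalytic subunit, Ppp3cc, is needed for a sum over all catalytic subunits and was at 5.76 ± 0.498 FPKM with etelcalcetide and 5.58 ± 0.390 FPKM with RANKL alone. Summed calcineurin A was 23.9 ± 0.906 FPKM with etelcalcetide and 28.4 ± 1.70 FPKM with RANKL alone (SD, n = 3 each). Ppp3ca made up 27.6%, 27.3% and 29.1% of that sum with etelcalcetide, against 24.6%, 25.3% and 22.8% with RANKL alone. The groups did not overlap (two-sided exact permutation p = 0.1, adjusted 0.167). Ppp3cc made up 24.1 ± 2.44% with etelcalcetide and 19.7 ± 2.26% with RANKL alone, also without overlap. Ppp3cb made up 47.9 ± 1.497% with etelcalcetide and 56.0 ± 2.30% with RANKL alone. Of the 3 genes only Ppp3cb passed its own limma test. Ppp3r1 per calcineurin A was 1.42 ± 0.0187 with etelcalcetide and 1.45 ± 0.0527 with RANKL alone, with overlapping groups (two-sided exact permutation p = 0.5), and the sign of that difference turned when Ppp3cc was left out of the sum or reads replaced FPKM.

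Rcan1 (ENSMUSG00000022951, chromosome 16, 92391953 to 92470867, minus strand), the inhibitor that NFAT activates from an internal promoter, did not pass the test. Its level was 18.1, 19.6 and 20.4 FPKM with etelcalcetide, against 16.6, 23.7 and 22.2 FPKM with RANKL alone. RANKL replicate 1 was the lowest of all 6 libraries and the other RANKL libraries were the highest, so the groups overlapped. The log2 fold change was -0.17, with a 95% confidence interval of -0.44 to 0.11 (limma adjusted p = 0.277). Without RANKL replicate 1 it was -0.32 and passed (limma adjusted p = 0.00712), and over the libraries left out in turn it lay between -0.32 and -0.063. Rcan1 per calcineurin A was 0.811 ± 0.0677 with etelcalcetide and 0.739 ± 0.163 with RANKL alone (two-sided exact permutation p = 0.5), and the difference turned from positive to -0.0217 without RANKL replicate 1. These values sum over all 7 annotated transcripts, which start in the windows printed above and elsewhere in the gene, so the level of each form was not measured.

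**Figure D3:**
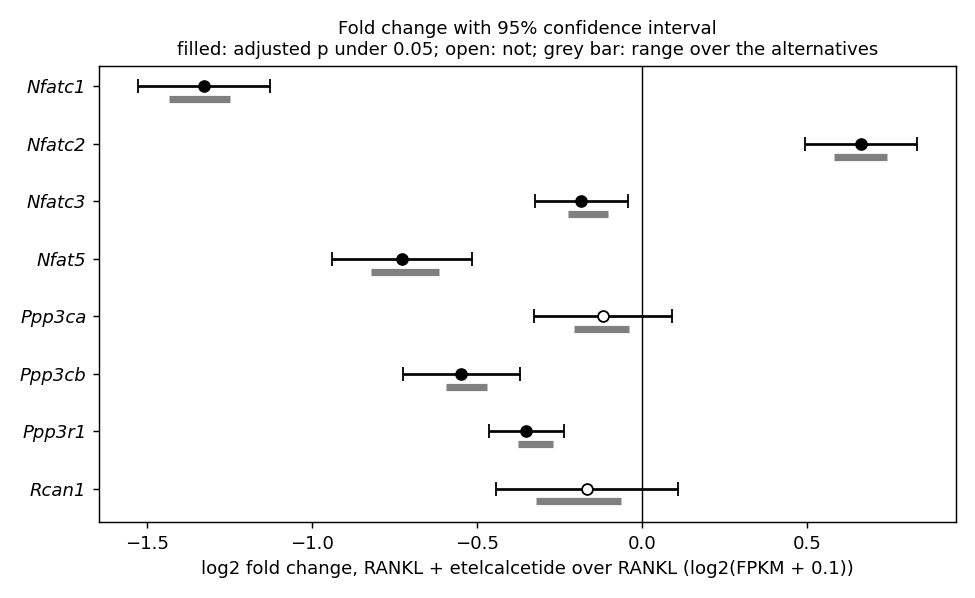
Log2 fold change (x axis, RANKL + etelcalcetide over RANKL, on log2(FPKM + 0.1)) of the 8 tested genes with its 95% confidence interval; filled points have a limma adjusted p under 0.05, and grey bars span the values over the alternative settings. Nfatc1 lies farthest to the left at -1.33, Nfatc2 is the single gene to the right of 0, and the intervals of Ppp3ca and Rcan1 cross 0.

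By level per length, the order with etelcalcetide ran Ppp3r1, Nfat5, Nfatc1, Rcan1, Nfatc3, Ppp3cb, Nfatc2, Ppp3ca and Nfatc4, and among neighbours the libraries of Nfatc3 and Ppp3cb overlapped. With RANKL alone the order ran Nfatc1, Nfat5, Ppp3r1, Rcan1, Ppp3cb, Nfatc3, Ppp3ca, Nfatc2 and Nfatc4. There the first 3 overlapped from neighbour to neighbour, as did Rcan1 and Ppp3cb. Nfatc1 thus held rank 3 with etelcalcetide and rank 1 with RANKL alone, and Nfatc2 and Ppp3ca stood in opposite order in the 2 groups.

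Of 12 further calcineurin subunits, regulators and anchors, 9 were tested, 2 rose and 3 fell, beside 26.0% of all tested genes rising and 27.0% falling, with a median log2 fold change of -0.04. Cabin1, which binds and inhibits calcineurin, rose by 0.25 and Chp1, a homologue of calcineurin B that can inhibit the enzyme, rose by 0.21 on the log2 scale (limma adjusted p = 0.0170 and 0.0135). Without etelcalcetide replicate 2 neither passed (limma adjusted p = 0.0667 for Cabin1 and 0.0540 for Chp1), and Chp1 did not pass without etelcalcetide replicate 3 (limma adjusted p = 0.0637). Rcan3, a relative of Rcan1, was at 10.5 ± 0.674 FPKM with etelcalcetide and 13.5 ± 0.723 FPKM with RANKL alone (log2 fold change -0.44, limma adjusted p = 0.000946). Ppp3r2, Rcan2 and Akap5 were not tested.

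Of 15 kinases, scaffolds and transport factors that act on NFAT, 12 were tested, 1 rose and 4 fell, 41.7% in all beside 53.0% of all tested genes, with a median log2 fold change of -0.13. Lrrk2, a kinase that in mouse macrophages holds NFAT in the cytoplasm through a noncoding RNA complex, was at 3.48 ± 0.102 FPKM with etelcalcetide and 8.20 ± 1.47 FPKM with RANKL alone (log2 fold change -1.27, limma adjusted p = 4.23e-05). Xpo1, the exportin that carries NFAT out of the nucleus, fell by 0.60 and Kpnb1, an importin, fell by 0.51 on the log2 scale. Csnk1d, a casein kinase, rose by 0.36; the kinases Gsk3a and Gsk3b did not pass (limma adjusted p = 0.139 and 0.839). Dyrk1b and Homer2 were not tested, and the noncoding RNA Nron, which matched more than 1 ID, has no value here.

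Upstream of calcineurin, all 16 listed genes of receptor-driven calcium release and of calcium entry were tested. Of these 9 rose and 4 fell, beside 26.0% of all tested genes rising and 27.0% falling, with a median log2 fold change of 0.19. Stim1, which senses the filling of calcium stores, was at 6.84 ± 0.279 FPKM with etelcalcetide and 4.02 ± 0.172 FPKM with RANKL alone (log2 fold change 0.68, limma adjusted p = 0.000136). Plcg2, the phospholipase that makes the calcium-releasing second messenger, was at 52.1 ± 2.23 FPKM with etelcalcetide and 37.4 ± 1.36 FPKM with RANKL alone (log2 fold change 0.40). The genes of the adaptor Blnk and the kinase Btk, which act just before Plcg2, fell by 0.80 and 0.49 on the log2 scale.

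Among regulators of the Nfatc1 gene, the activator list had 11 genes, of which 10 were tested, 5 rose and 2 fell, 70.0% in all beside 53.0% of all tested genes, with a median log2 fold change of 0.17. Junb, an AP-1 subunit, was at 162 ± 5.02 FPKM with etelcalcetide and 69.3 ± 5.58 FPKM with RANKL alone (log2 fold change 1.15, limma adjusted p = 2.90e-06). The NF-kappaB genes Rela and Nfkb1 rose by 0.53 and 0.45 on the log2 scale. Mitf, a factor of osteoclasts and melanocytes, was at 9.32 ± 0.604 FPKM with etelcalcetide and 19.5 ± 1.70 FPKM with RANKL alone (log2 fold change -1.14, limma adjusted p = 1.07e-05). Fos, Traf6 and Creb1 did not pass (limma adjusted p = 0.610, 0.959 and 0.349), and Camk4 was not tested.

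The list of repressors of Nfatc1 or of osteoclast formation had 10 genes, of which 9 were tested, 7 rose and 1 fell, beside 26.0% of all tested genes rising, with a median log2 fold change of 0.32. Id3, an inhibitor of helix-loop-helix factors, was at 40.9 ± 2.20 FPKM with etelcalcetide and 4.70 ± 0.526 FPKM with RANKL alone (log2 fold change 3.02, limma adjusted p = 9.30e-08). Its relative Id1 was at 3.93 ± 1.11 FPKM with etelcalcetide and 0.509 ± 0.0342 FPKM with RANKL alone (log2 fold change 2.62). Nfkb2, whose unprocessed product holds NF-kappaB in the cytoplasm, rose by 0.83, with 18.1% of its exon length shared with genes on the other strand. The gene of the list that fell, Prdm1, is known to repress other repressors and so to favour osteoclast formation, unlike the list's name. It was at 0.1197 ± 0.0492 FPKM with etelcalcetide and 0.670 ± 0.151 FPKM with RANKL alone (log2 fold change -1.87, limma adjusted p = 0.000591). Lhx2 was not tested.

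Of 11 osteoclast genes reported elsewhere as NFATc1 targets, 10 were tested, 0 rose and 7 fell, beside 27.0% of all tested genes falling, with a median log2 fold change of -1.42. Ctsk, the bone-collagen protease cathepsin K, was at 0.191 ± 0.0570 FPKM with etelcalcetide and 94.5 ± 23.1 FPKM with RANKL alone (log2 fold change -8.40, limma adjusted p = 2.93e-08). Atp6v0d2, a proton pump subunit, was at 0.390 ± 0.0812 FPKM with etelcalcetide and 31.8 ± 3.70 FPKM with RANKL alone (log2 fold change -6.10). Acp5, the phosphatase TRAP, was at 3.93 ± 0.709 FPKM with etelcalcetide and 115 ± 22.1 FPKM with RANKL alone (log2 fold change -4.92). Oscar, an osteoclast receptor, had 0 reads over the etelcalcetide libraries, where 0 allows up to 3 reads, and 310 over the RANKL libraries. Itgb3, Dcstamp and Mmp9, which code for an integrin, a fusion receptor and a matrix protease, did not pass (limma adjusted p = 0.402, 0.995 and 0.803), and Calcr was not tested. The differences of these genes thus ranged widely beside a Nfatc1 log2 fold change of -1.33, and 8 of the 11 genes are also the osteoclast markers summed above.

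**Figure D4:**
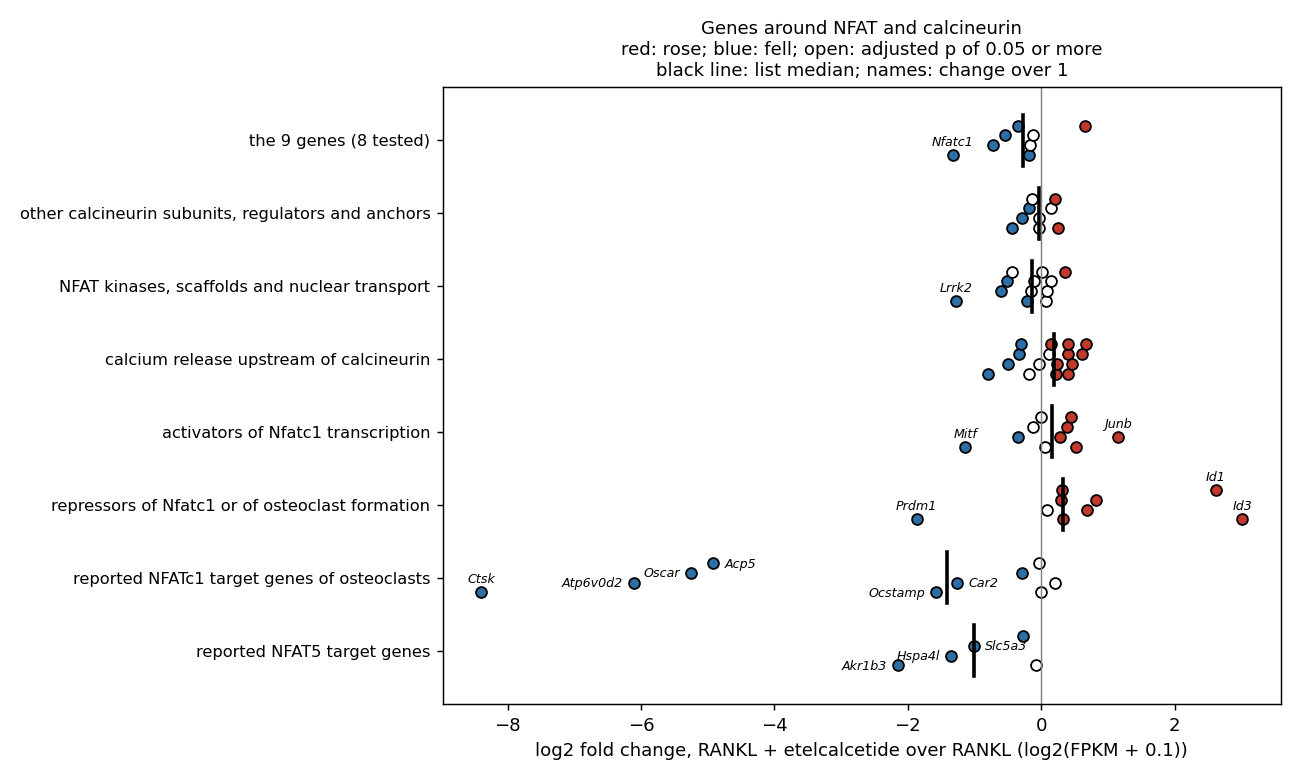
Log2 fold change (x axis, RANKL + etelcalcetide over RANKL, on log2(FPKM + 0.1)) of the tested genes of each list, with red for rose, blue for fell, open for an adjusted p of 0.05 or more, and a black line at the list's median. Reported NFATc1 and NFAT5 targets have medians of -1.42 and -1.01, and the repressor list has 0.32; Oscar, at 0 reads with etelcalcetide, is drawn at its fitted value.

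The tested genes outside the lists whose log2 values ran closest to Nfatc1 over the 6 libraries were C77080, Cd200 and Fosl2 (Pearson r of 0.999 each), and 100 genes had an r over 0.99. Fosl2, an AP-1 subunit, was at 8.50 ± 0.378 FPKM with etelcalcetide and 27.1 ± 3.42 FPKM with RANKL alone. For Nfatc2 they were Mprip, Extl3 and Tm2d2, among 141 genes over 0.99. For Rcan1 they were Gins2, Apex2 and Pip5k1a (r of 0.978, 0.977 and 0.953), with 0 genes over 0.99. These values describe 6 libraries that share a split into the 2 groups, which alone gives high r to any gene that differs between them.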

How the data were processed

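Bulk RNA was measured in 6 libraries of RAW264.7 cells, 3 per group, grouped and numbered by the titles of the samples. For each library the authors deposited a table of FPKM values. The submitters' processing notes list HISAT2 2.1.0, featureCounts 1.6.0, Trimmomatic 0.38, DESeq2 1.22.1, FastQC, MultiQC and CASAVA without saying what each did. They name GRCh38, but all 55536 IDs matched mouse GENCODE M21 on GRCm38, from which symbols, coordinates (1-based) and exon lengths were taken. RNA selection and strandedness were not given in the sources used here; reads shared by overlapping genes therefore cannot be assigned.

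FPKM times exon length gave whole reads, within 0.1 read, for 100% of values, and these reads gave depths, the read minimum and scaling factors; no count model was used. Scaling factors were trimmed means of M values (1.01 to 1.04 with etelcalcetide, 0.967 to 0.978 with RANKL alone); FPKM was divided by them, and log2(FPKM + 0.1) was fitted with limma 3.58.1 in R 4.3.3 with a single term for group and a variance trend. Genes needed 0.5 FPKM and 10 reads in at least 3 libraries. The added 0.1 understates the change of low genes, and printed levels are the deposited values. For shares and ratios, groups were compared with exact permutation tests (two-sided) over 20 regroupings, adjusted over 5 measures. The steps were tested on simulated data in which far fewer genes changed than were called here. That test therefore did not check the scaling under so broad a change. Replicate numbers carry the same labelled days in both groups, which ties them by label; deviations of same-numbered libraries from their group means correlated at 0.0744, -0.0188 and -0.0299. Alternatives added replicate number as a block or changed the scaling, the added FPKM, the filter, the fit and the libraries used.

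Named genes were the 9 genes, up to 4 tested genes with the smallest adjusted p of each further list, all untested list genes by name, and the 3 genes most like Nfatc1, Nfatc2 and Rcan1. The 9 genes and the lists were chosen with earlier results of these data known. Slc6a6, Itgb3, Dcstamp, Mmp9, Lyz2, Gsk3a, Gsk3b, Ppp3cc, Fos, Traf6 and Creb1 were named in addition. A gene that this rule names is not reported here. Promoter sequences are from RefSeq.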

Additional observations from a re-analysis of the deposited data

How the results depend on the processing

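Over 53 results and 749 alternative values, 733 were labelled the same as the main value. For a log2 fold change that label meant the same direction and side of the threshold. For a count of genes it meant only a similar size, as with 3558 genes higher on library totals in place of 2896. Nfatc1, Nfatc2, Nfat5, Ppp3cb and Ppp3r1 kept their calls under every alternative run. The Nfatc3 log2 fold change was -0.10 with library totals and -0.18 with the replicate block, where it no longer passed, and it ranged from -0.22 to -0.16 with 1 library left out; the cause was not tested. The Rcan1 log2 fold change ranged from -0.32 to -0.063 and passed without RANKL replicate 1. The difference of etelcalcetide minus RANKL in Ppp3r1 per calcineurin A, -0.0261, turned to 0.00518 on reads in place of FPKM and to 0.0698 without Ppp3cc. That in Rcan1 per calcineurin A, 0.0725, ranged from -0.0217 without RANKL replicate 1 to 0.121. Of 36 further named genes 32 did not change, Cabin1 and Chp1 lost their calls without 1 etelcalcetide library, and Csf1r (library totals, or without RANKL replicate 3) and Itgax (without RANKL replicate 1) gained one. With the replicate block 5709 genes were changed in place of 5894; among the genes named here the block changed no call but that of Nfatc3. Limits are 3 libraries per group, label days that differ between replicates, values per gene that pool starts, and read counts of Nfatc4 too low for a test.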
